A study of Arabidopsis thaliana with 96 samples.

Results

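In rosette leaves of Arabidopsis thaliana, 74 of 14404 nuclear genes had a lower average transcript level both in stronger light and at higher nitrate. Levels are given as CPM, the count of a gene per 1000000 counts of its library, and the 14404 genes are those with a mean of 5 CPM or more over all 96 libraries. The members were chosen by their measured CPM: a gene belonged to the set where the log2 ratio of the mean of the group means in high over low light was at most -0.3, and the same ratio for 20 over 2 mM nitrate was at most -0.3. Both ratios come from the same libraries that are described here, so that a member is lower in high light and at 20 mM is a condition of membership and not a finding. Taking the log2 ratio at each nitrate dose or light level and then averaging, another reading of the rule, gave 64 genes, 57 of them among the 74. With the same thresholds, 62 genes were higher with both factors, 1121 were lower with light and higher with nitrate, and 6023 were higher with light and lower with nitrate.

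The plants were of the wild-type accession Col-0 and all received dilute Hoagland's solution that differed in nitrate (2, 5, 10 or 20 mM). All had been raised as seedlings on sucrose medium and moved to pots of clay. They then grew in short days under a photon flux, in micromoles per square metre and second, of 100 (low light), 250 (mid light) or 500 (high light). Leaf punches of single plants were frozen on day 30 after transplanting, and 8 plants were sequenced in each of the 12 combinations. Libraries held from 9.46 to 18.1 times 1000000 counts and from 20504 to 22239 genes with a count. The discs hold all leaf cell types, so fewer cells of a type and less RNA per cell cannot be told apart. All 5 mesophyll markers and 13 of 14 vascular markers had a mean of 5 CPM or more, against 0 of 6 markers of root and seed.

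Several of the members are known from responses to cold, drought and abscisic acid. This hormone accumulates when water is short and, through protein kinases that it frees from clade A protein phosphatases 2C, switches on genes with the ABRE element in their promoters. Cold acts partly through AP2-type factors of the CBF/DREB1 family, which bind the DRE element and raise the COR, KIN and LTI genes, whose small hydrophilic proteins protect membranes and enzymes during freezing and drying. Another kind of member is known from the first minutes and hours after touch, wounding or cold, when transcripts of regulators appear briefly and disappear again.

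The promoters of a few members carry the elements of these pathways, and they are shown because their genes recur in the results. Each sequence is the 250 bases before the annotated start of the gene in RefSeq (build TAIR10.1), read 5′ to 3′ on the gene's strand. Capitals mark the DRE core GCCGAC, the ABRE motif ACGTGNC and the G-box CACGTG, on either strand. Only these letters were searched, so other forms of the elements, such as ACCGAC for the DRE, are neither marked nor counted. The window of COR15A is chr2:17712331-17712580 (minus strand), that of the dehydrin gene LTI30 is chr3:18940393-18940642 (plus strand), and that of AFP1, which encodes a protein that binds the abscisic acid factor ABI5, is chr1:26038655-26038904 (plus strand).
COR15A: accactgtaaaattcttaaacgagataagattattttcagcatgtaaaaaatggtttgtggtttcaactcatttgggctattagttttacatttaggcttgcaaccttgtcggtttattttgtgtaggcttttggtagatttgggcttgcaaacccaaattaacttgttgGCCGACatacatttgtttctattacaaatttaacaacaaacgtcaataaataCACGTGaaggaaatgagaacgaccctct
LTI30: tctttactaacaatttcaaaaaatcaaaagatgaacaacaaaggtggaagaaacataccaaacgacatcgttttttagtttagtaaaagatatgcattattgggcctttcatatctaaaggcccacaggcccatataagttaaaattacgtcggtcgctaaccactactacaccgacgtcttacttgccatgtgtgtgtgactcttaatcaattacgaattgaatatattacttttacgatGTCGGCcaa
AFP1: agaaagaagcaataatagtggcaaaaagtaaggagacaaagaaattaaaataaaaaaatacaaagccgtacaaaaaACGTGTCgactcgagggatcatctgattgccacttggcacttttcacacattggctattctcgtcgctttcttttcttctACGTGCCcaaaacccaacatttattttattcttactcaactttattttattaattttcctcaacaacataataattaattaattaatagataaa
In COR15A the DRE core began 80 bases before the gene and the G-box 28 bases before it. LTI30 had the DRE core on the other strand, beginning 9 bases before the gene, and AFP1 had 2 ABRE matches that began 174 and 94 bases before it.

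Over windows from 250 bases before to 50 after the start, the DRE core was present in 6 members (8.11%) and in 4.00% of the promoters of the 14403 nuclear genes past the minimum that RefSeq places. Its carriers were COR15A, LTI30, the AP2-factor gene ABR1, the ubiquitin-ligase gene PUB19, AT1G02660 and AT1G01240. The I-box GATAAG was in 29.7% of members and 15.4% of all windows, and the PIF element CACATG in 20.3% and 12.6%. The shares were 14.9% and 12.3% for the ABRE motif, 12.2% and 9.46% for the G-box, and 35.1% and 32.2% for the W-box (TTGACC or TTGACT). The sequence CGCGTT, known as the rapid stress response element, was in 5 members (6.76%) and 3.80% of all windows, and its carriers were AT2G25460, AT4G29780, AT1G15010, AT5G11070 and the kinase gene SIP4. The telo box AAACCCTA was in 0 members and 5.55% of all windows, and the CCA1 site AAAAATCT in 4.05% and 8.48%. The shares were 4.05% and 3.24% for the evening element AAAATATCT and 14.9% and 13.1% for the auxin element TGTCTC. They were 9.46% and 6.24% for P1BS (GNATATNC) and 18.9% and 17.1% for the sugar element TATCCA. The ABRE motif and CGCGTT were not among the motifs planned and were added to them. The ABRE and G-box letters overlap in part, both strands were searched, and a match of letters is a description only. The shares count the printed letters alone and no other form of an element.

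Members were mostly of modest abundance, with a median of 15.5 CPM against 25.2 CPM for all 14404 genes. The range ran from 5.01 CPM for GCL2 to 696 CPM for KIN2. KIN2, COR15A (630 CPM) and AT5G45510 (290 CPM), a leucine-rich repeat gene, were the most abundant. All 74 are annotated as protein-coding and 9 encode uncharacterized proteins. Chromosomes 1 to 5 held 16, 13, 18, 10 and 17 of them.

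**Figure D1:**
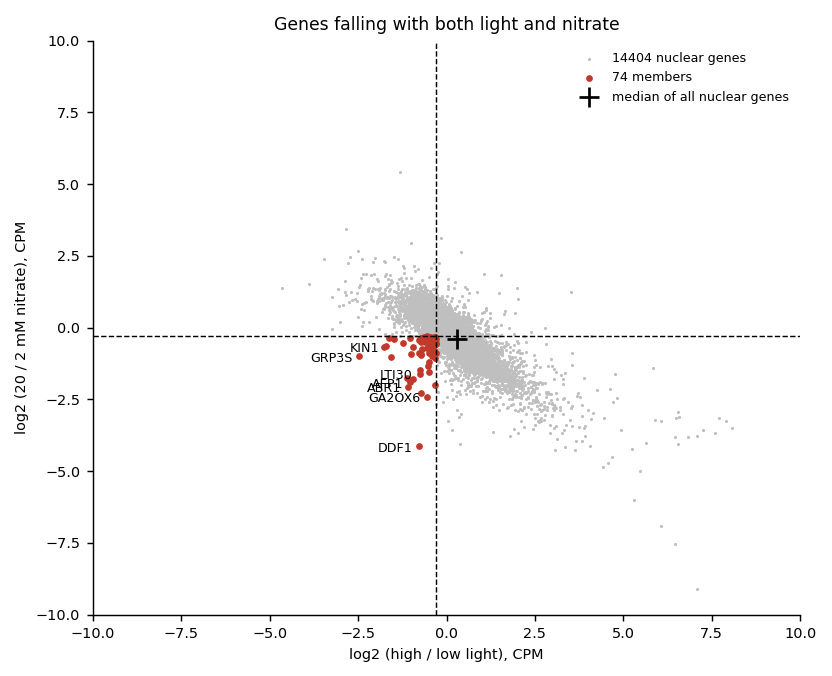
Each point is a nuclear gene, placed by its log2 ratio of high over low light (horizontal) and of 20 over 2 mM nitrate (vertical) in CPM; the dashed lines are the thresholds of -0.3 and red points are the 74 members. The black cross, the median of all 14404 genes, lies at 0.29 and -0.38, below the nitrate threshold, and the cloud runs from upper left to lower right, away from the corner that holds the members.

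Ordered by the sum of both ratios, DDF1 came first. This gene, which encodes an AP2-type factor related to CBF/DREB1, had a ratio of -0.76 for light and -4.13 for nitrate. GRP3S, a glycine-rich protein gene, had -2.46 and -1.002, and ABR1 had -1.09 and -2.06. AT2G25460, a locus without a symbol, stood at -0.73 and -2.28. GA2OX6, which encodes a gibberellin-inactivating oxidase, stood at -0.54 and -2.40, and AFP1 at -1.03 and -1.90. The lectin gene PBP1 stood at -1.12 and -1.74, and AT5G52050 at -0.93 and -1.78. Next came the phosphatase gene HAI1 at -1.57 and -1.04, the auxin repressor gene IAA29 at -1.78 and -0.68, KIN1 at -1.71 and -0.65, and LTI30 at -0.75 and -1.60. The median over members was -0.50 for light and -0.62 for nitrate, against 0.29 and -0.38 over all 14404 genes. Just inside the light threshold lay AT5G11070 and KIN2 at -0.303 and -0.302, and just outside it AT4G16008 and the zinc-finger gene ZF2 at -0.299 for both. Just inside the nitrate threshold lay GCL2 and ENP at -0.314 and -0.307, and just outside it AT5G55180 and BAG2 at -0.299 and -0.298.

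CPM depends on what else is in a library. The median of all 14404 genes for 20 over 2 mM was -0.38, which by itself passes the threshold of -0.3. On CPM scaled with TMM factors, which set the bulk of genes level, the medians of all genes were 0.05 for light and -0.07 for nitrate. On that scale all 74 members stayed below 0 in both ratios, and 38 of them met both thresholds. COR15A (-0.14), COR15B (-0.27) and KIN2 (-0.28) were among those whose TMM-scaled nitrate ratio was above -0.3. Relative to other genes, 59 of the 74 lay at or below the median nitrate ratio of all genes. These counts reuse the ratios that chose the members, so they describe the choice and are not a finding.

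Some plants stood apart and weighed on the group means. In 23 members the 5 highest of the 96 libraries held over 25% of the summed CPM, which was the case in 4.40% of all 14404 genes; equal libraries would give 5.21%. Such plants were not limited to a single group. The highest plant reached 10 times its group median in 14 members in mid light at 2 mM. The count was 14 in low light at 5 mM, 13 in mid light at 20 mM and 12 in low light at 10 mM. In that order 222, 290, 177 and 308 of all 14404 genes did so. Over the 12 groups the count of members ran from 4 to 14. Mid light at 2 mM held the library with the highest value for the most members. DDF1 read 227, 457 and 280 CPM in replicates 3, 4 and 6 of that group and 0.337, 0.868, 0.418, 0.502 and 0.0848 CPM in replicates 1, 2, 5, 7 and 8. AT4G29780, a nuclease-like gene, read 779, 1002 and 737 CPM in replicates 3, 4 and 6 and 12.6, 11.2, 14.8, 8.60 and 9.07 CPM in the others. The values of the 3 plants and of the other 5 did not overlap in either gene. AT2G25460 ranged from 206 to 548 CPM in replicates 3, 4 and 6 and from 1.44 to 12.1 CPM in the other 5. Replicate 4 of that group held the highest of all 96 values for 23 members (31.1%), against 4.87% of all 14404 genes. Mid light at 2 mM enters the nitrate ratio and the minimum, so high values there favour membership. The shares in this paragraph are therefore a description of the set. Loci without a symbol, such as AT4G29780 and AT2G25460, are named here after their values were seen.

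Without those 3 plants, 49 of the 74 met the rule. They were left out after their values were seen, and high plants of other groups were kept. Leaving out high plants at 2 mM by itself raises the ratio of 20 over 2 mM. The ratio of 20 over 2 mM turned positive in 15 members: in DDF1 it moved from -4.13 to 1.93, in AT4G29780 from -1.48 to 1.58, in AT5G52050, a MATE efflux carrier gene, from -1.78 to 1.74, and in AT2G25460 from -2.28 to 1.09. LTI30 (-1.34), AFP1 (-1.32), PBP1 (-1.89) and HAI1 (-0.98) stayed low without them. The mean over the other 93 plants was under 5 CPM in 4 members, DDF1 (1.48 CPM), ABR1, GA2OX6 and GCL2, which thus passed the minimum through these plants.

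**Figure D2:**
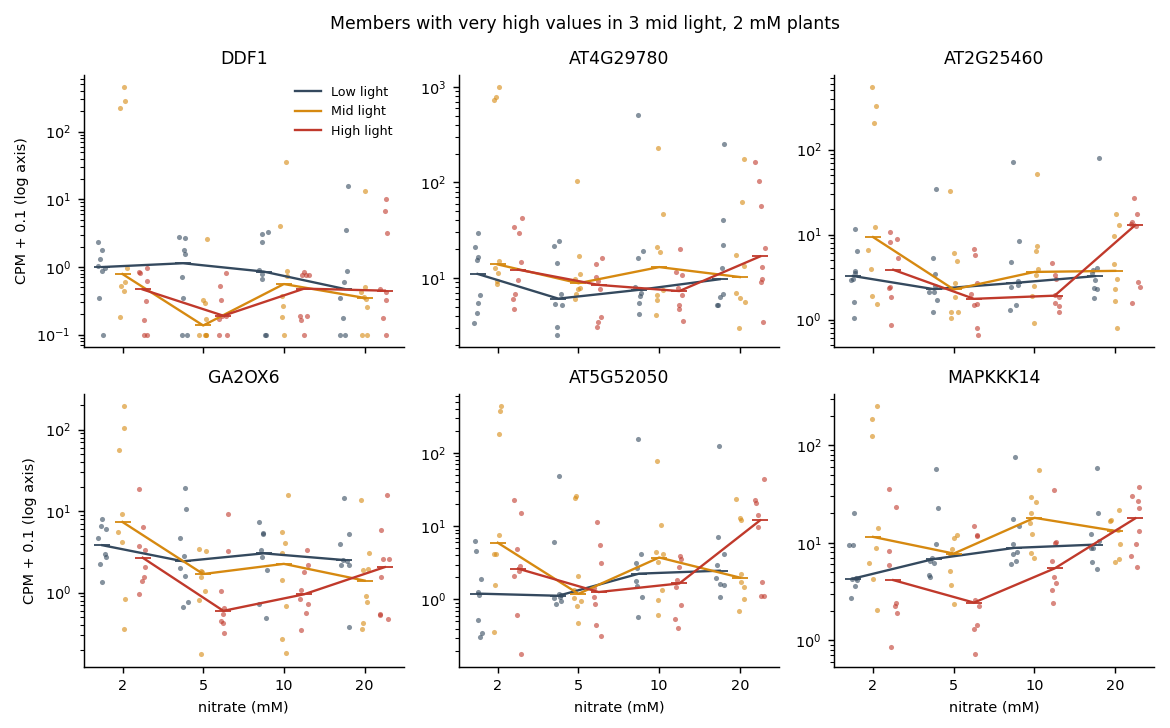
Each point is a plant (CPM + 0.1, log axis) by nitrate dose and light level, lines join group medians, and the panels are DDF1, AT4G29780, AT2G25460, GA2OX6, AT5G52050 and MAPKKK14. In mid light at 2 mM the 3 plants named in the text lie far above the medians, which stay at 0.685 CPM for DDF1 and 13.7 CPM for AT4G29780.

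The library codes fall into 4 consecutive runs of 24, called code sets here, with 2 plants of every group in each. The sets differed in 46 of the 74 members (F test in an edgeR fit with the set as a term, adjusted p under 0.05), where 71.3% of all 19498 genes tested were called. PBP1 averaged 89.9 CPM in set 1 and 6.91, 3.83 and 3.01 CPM in sets 2, 3 and 4. Its neighbour in the lectin family JAL34 averaged 67.7, 8.92, 8.92 and 10.5 CPM, and the cytokinin response regulator gene RR3 134, 48.6, 33.1 and 49.5 CPM. Set 1 was the highest in these 3 genes and in 36 members in all, as in 54.3% of all 14404 genes. It was the lowest in IAA29, with 0.400 CPM against 6.44, 5.92 and 9.29 CPM, and in NGA1, with 9.11 CPM against 18.8, 20.5 and 28.2 CPM. The labels do not say what the code sets stand for. Within the sets, 71, 50, 68 and 62 of the 74 members were lower in high than in low light in sets 1 to 4, and 49, 71, 68 and 55 were lower at 20 than at 2 mM. The median light ratio of members was -0.89, -0.18, -0.50 and -0.38, against 0.18, 0.40, 0.28 and 0.27 over all 14404 genes. The median nitrate ratio of members was -0.29, -0.82, -0.84 and -0.39, against -0.48, -0.29, -0.36 and -0.33 over all genes, so in set 1 it was above that of all genes. LTI30 shows the difference: its light ratio was -1.996 in set 1 and 0.29 in set 2, and its nitrate ratio -0.82 and -2.48. Without set 1, 40 of the 74 met the rule. The libraries of each set also entered the choice of members, so the counts within sets are a description.

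In all, 16 members met the rule under each of 5 other readings: TMM-scaled CPM, RLE-scaled CPM, group medians in place of means, without code set 1, and without the 3 plants. They include GRP3S, AFP1, HAI1, IAA29, KIN1, the glucosyltransferase gene UGT85A5, the small peptide gene RTFL16 and the heat shock factor gene AT-HSFB2B. The other 8 have no symbol and include AT3G27250, which encodes an uncharacterized protein, and AT3G16800, a phosphatase 2C gene. Their ratios ran from GRP3S with the lowest light ratio to AT3G03000 (-0.35), and from AFP1 with the lowest nitrate ratio to KIN1 (-0.65). The rule averages CPM, and in the edgeR fit, which averages log2 levels, the nitrate difference of some of the 16 was near 0: -0.02 in KIN1 (adjusted p = 0.965), -0.16 in GRP3S (0.728) and -0.27 in IAA29 (0.680).

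Across the grid the high corner was mostly at low nitrate in low or mid light. The highest group mean was in low light at 2 mM for 34 members and in mid light at 2 mM for 29, and the lowest in high light at 20 mM for 26. Without the 3 plants the highest mean was in low light at 2 mM for 42 members and in mid light at 2 mM for 5. In low light 60 of 74 members were lower at 20 than at 2 mM (median log2 ratio -0.48, all genes -0.23). The count was 66 in mid light (median -0.76, all genes -0.39) and 52 in high light (median -0.41, all genes -0.46). Without the 3 plants the count in mid light was 54, and the median of members and of all genes was -0.41 alike. High light was below low light in 60, 68, 65 and 61 members at 2, 5, 10 and 20 mM. The median log2 ratio of members was -0.57, -0.71, -0.49 and -0.44, and that of all genes 0.31, 0.42, 0.29 and 0.05. The group means compared here enter the ratios that chose the members, so these counts are a description.

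**Figure D3:**
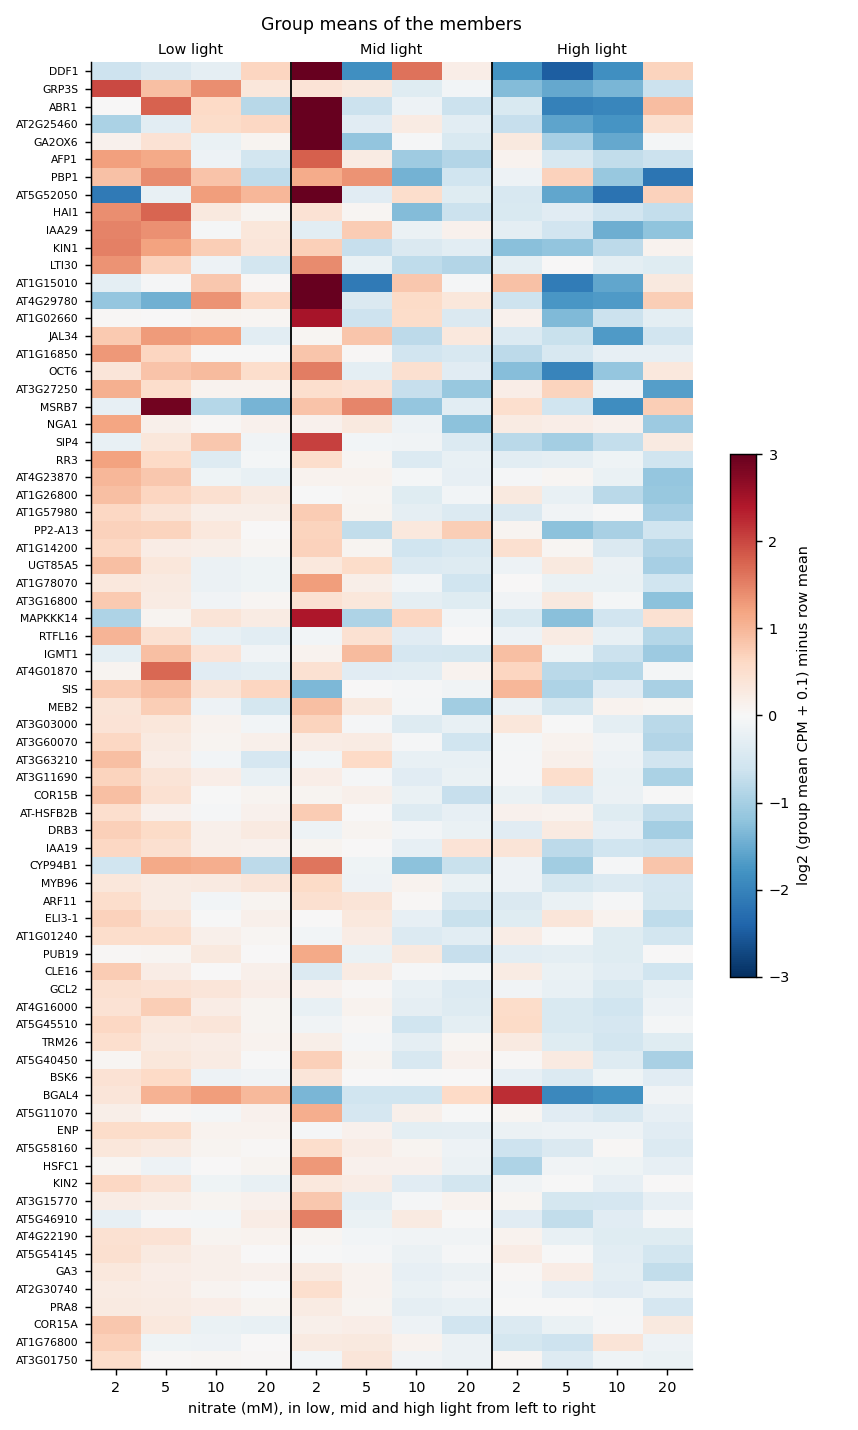
Rows are the 74 members in order of the sum of their ratios, columns the 12 groups, and colours the log2 of the group mean (CPM + 0.1) minus the row's mean, with the scale ending at 3 and -3. Dark red cells in mid light at 2 mM mark DDF1, ABR1, AT2G25460, GA2OX6 and others, while COR15A and COR15B are darkest in low light at 2 mM.

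The cold, drought and abscisic acid genes gave the most members of any list. The lists held from 5 to 33 genes and were chosen with earlier results of these data known, so this rank is a description. Of 25 listed genes 22 passed 5 CPM and 6 were members: COR15A, COR15B, KIN1, KIN2, LTI30 and HAI1. In the edgeR fit of the whole list, 9 genes were lower and 1 higher in high than in low light, and 7 lower and 2 higher at 20 than at 2 mM (24 tested, median log2 -0.42 and -0.34, against 0.04 and -0.06 over all genes tested). Of all genes tested, 28.7% were lower in high light and 34.6% lower at 20 mM. The 9 include all 6 members, which the rule chose for being lower in high light, and the 7 include the member LTI30. Listed genes outside the 74 missed a threshold or the minimum. RD29A had a light ratio of 0.33 and a nitrate ratio of -1.81, and COR47 -0.04 and -1.87. P5CS1, the proline synthesis gene, had a light ratio of -1.93 and a nitrate ratio of 1.01, and COR413-PM1 had -0.62 and -0.15. The upstream factors CBF1 (-0.65 and -0.99) and CBF2 (-0.31 and -0.56) met both thresholds, but their means of 1.801 and 3.26 CPM were under the minimum.

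COR15A, which encodes a chloroplast protein that stabilises membranes during freezing, had its nitrate difference in opposite directions in low and in high light. In low light at 2 mM its lowest, median and highest plants read 530, 1026 and 1785 CPM, and at 20 mM 147, 444 and 1209 CPM. In high light they read 140, 244 and 1475 CPM at 2 mM and 142, 771 and 1137 CPM at 20 mM. In low light 7 of 8 plants at 20 mM lay below the 2 mM median, and in high light 7 of 8 lay above it, though the ranges overlapped in both. The change from 2 to 20 mM was higher in high than in low light by 1.99 ± 0.57 on the log2 scale (SE, edgeR quasi-likelihood fit, adjusted p = 0.0229). The rule set no threshold on this contrast, but its 4 groups all enter both ratios that chose the members, so the call is not independent of that choice. The contrast was positive in 62.2% of members and 50.8% of all genes tested. In 8 of 8 alternative fits it stayed past the threshold, with adjusted p from 0.00902 to 0.0278.

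With TMM factors and no block, COR15A was the only member that edgeR called in that contrast over all 96 plants. That was 1 of 74, where 6.03% of all 19498 genes tested were called. The count was 8 with the code sets as a block and 10 without code set 1, where 12.1% and 15.8% of all genes tested were called. The differences of the other cold members were positive and did not pass. KIN1, a small protein gene of the cold response, differed by 2.79 ± 0.99 (adjusted p = 0.0731), LTI30 by 2.06 ± 0.77 (0.0928), KIN2 by 1.23 ± 0.51 (0.134), COR15B by 1.29 ± 0.58 (0.170) and HAI1 by 1.297 ± 0.91 (0.416), all adjusted over all genes by edgeR. In both COR15B and KIN2, 8 of 8 low light plants at 20 mM lay below the 2 mM median and 7 of 8 high light plants lay above it. KIN1 passed in 4 of the 8 alternatives and LTI30 in 1, the fit without code set 1. In low light KIN1 read from 9.51 to 62.5 CPM at 2 mM (median 32.7) and from 1.58 to 47.3 CPM at 20 mM (median 9.37). In high light it read from 1.78 to 13.1 CPM at 2 mM (median 3.96) and from 3.08 to 36.9 CPM at 20 mM (median 10.12). AT1G16850, an uncharacterized gene outside the list, differed by 2.08 ± 0.68 (edgeR adjusted p = 0.0506) and passed in 7 of the 8 alternatives, all but the fit without the low-count filter. At 2 mM the low and high light plants of KIN1 overlapped only between 9.51 and 13.1 CPM.

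Cell type markers differed among themselves in the same contrast. Its median was 1.38 over the 5 leaf mesophyll markers, 1 of them called higher, and 0.93 over the 14 vascular markers, 1 called higher. Over the epidermis and guard cell markers tested the median was 0.02 and 0.26, with 0 called. The summed mesophyll level averaged 36710 CPM at 2 mM and 50260 CPM at 20 mM in low light, and 17540 and 42220 CPM in high light. In low light it ranged from 10480 to 52230 CPM at 2 mM and from 40910 to 57240 CPM at 20 mM. In high light it ranged from 13010 to 26270 CPM and from 28420 to 53570 CPM, so the doses did not overlap there. The summed vascular level averaged 1024 CPM at 2 mM and 779 CPM at 20 mM in low light, and 1161 and 889 CPM in high light. The part of these markers in the differences of the cold members was not tested.

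The medians of LTI30 and HAI1 were lower at 20 than at 2 mM in high light too. LTI30 had median plants of 67.7, 28.9, 14.3 and 11.7 CPM at 2, 5, 10 and 20 mM in low light and of 25.2, 29.2, 15.5 and 14.6 CPM in high light. HAI1, a clade A phosphatase that restrains abscisic acid signalling, had median plants of 25.6, 9.59 and 5.57 CPM in low, mid and high light at 2 mM. At 20 mM they were 10.2, 2.17 and 3.82 CPM. In HAI1 the low light plants were from 11.5 to 48.1 CPM at 2 mM and the high light plants from 2.67 to 20.3 CPM, so the groups overlapped.

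**Figure D4:**
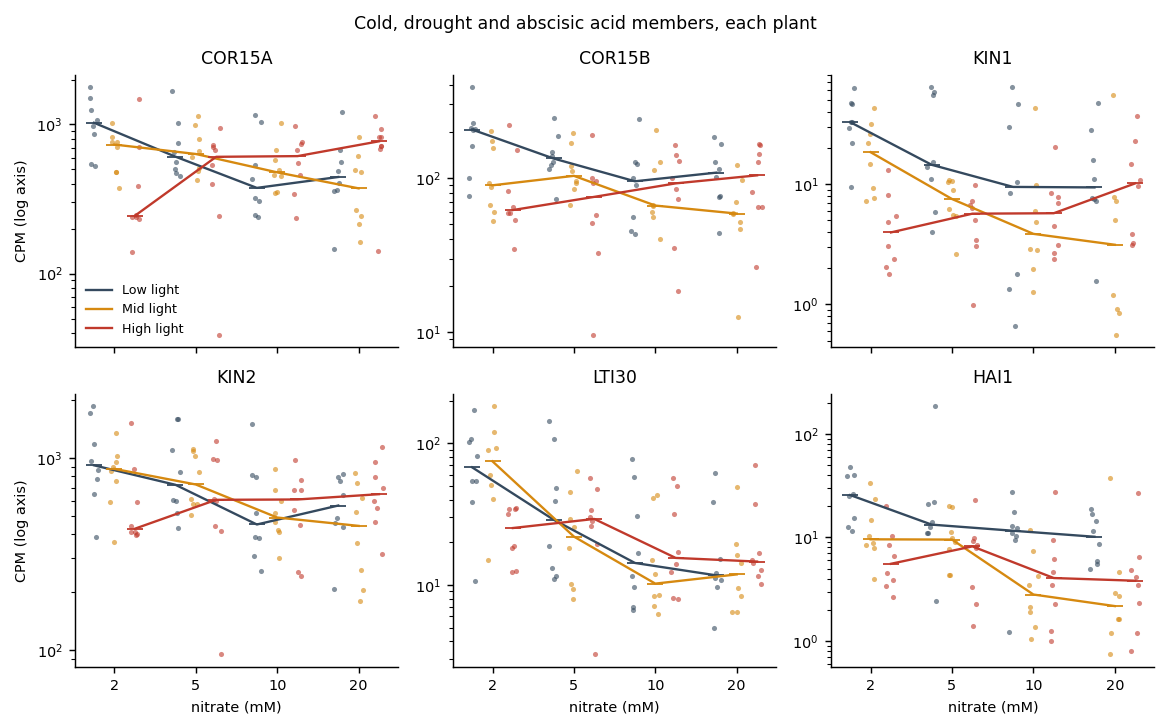
Each point is a plant (CPM, log axis) by nitrate dose and light level, and lines join group medians of COR15A, COR15B, KIN1, KIN2, LTI30 and HAI1. The medians of COR15A cross, from 1026 CPM (low light) and 244 CPM (high light) at 2 mM to 444 and 771 CPM at 20 mM, while those of LTI30 end at 11.7 and 14.6 CPM.

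COR15A and COR15B lie 7 bases apart on chromosome 2 and share 83.8% of 420 aligned coding bases, and KIN1 and KIN2 share 95.02% of 201 on chromosome 5. Their longest identical stretches are 31 and 58 bases, and whether reads were split between the partners was not tested. PBP1 and JAL34 on chromosome 3 share 73.4% of 887 aligned coding bases.

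Between plants of the same group, the cold members varied together. The Pearson correlation of log2(CPM + 1) after subtracting the group mean, over 96 plants, had a median of 0.66 among the 6 cold members (range -0.05 to 0.85), and KIN2 and COR15A reached 0.85. AT2G25460 and AT5G52050 reached 0.93, or 0.90 without the 3 plants, and SIP4 and MAPKKK14, both kinase genes, 0.86 and 0.82. ABR1 and CYP94B1, a gene of jasmonate turnover, stood at 0.81, or 0.82 without the 3 plants. Over all pairs of members the median was 0.11, as over all pairs of the 14404 genes (0.11). All pairs share libraries, depth and code sets.

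Auxin and cytokinin regulators were also members. Over all 96 plants and without a block, edgeR called none of IAA29, IAA19 and RR3. This held for the light by nitrate, 10 against 5 mM and mid light contrasts. With the code sets as a block, edgeR called RR3 for the nitrate change in high against low light, where 12.1% of all genes tested were called. IAA29 and IAA19, auxin-induced repressors known from shade, were the members among 30 shade and auxin genes, 14 of which passed 5 CPM. IAA29 had median plants of 13.9 CPM in low, 0.203 CPM in mid and 2.37 CPM in high light at 2 mM, and of 4.65, 6.09 and 0.662 CPM at 20 mM. The plants ranged from 0.433 to 24.8 CPM in low and from 0.0599 to 9.93 CPM in high light at 2 mM, and the groups overlapped. RR3, a type-A response regulator that dampens cytokinin signalling, was the only member among 16 cytokinin genes. At 2 mM its median plants read 70.3 CPM under low and 42.04 CPM under high light, and at 20 mM they read 54.7 and 36.1 CPM. The median plants of GRP3S stood at 56.2 CPM under low and 12.1 CPM under high light at 2 mM, and at 30.4 and 5.69 CPM at 20 mM. Its low light plants at 2 mM (26.3 to 499 CPM) were all above the high light plants (5.45 to 22.2 CPM).

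MYB96, which activates wax synthesis and links it to abscisic acid, was the only member of 22 epidermis and cuticle genes. At 2 mM its median plants read 35.7 CPM under low and 29.8 CPM under high light. Of the 20 genes of that list tested by edgeR, 14 were lower and 0 higher in high light, where 28.7% of all genes tested were lower. Its summed level at 2 mM ran from 729 to 2610 CPM in low and from 386 to 2348 CPM in high light. The part of epidermal cells in the level of MYB96 was not tested.

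The 10 against 5 mM contrast used none of the doses in the nitrate ratio of the rule. Its low and high light groups do enter the light ratio, and all its groups enter the minimum. The calls averaged over light thus share plants with the choice of members. Averaged over light, 3 members were called (4.05%), where 14% of all genes tested were called. AT3G27250 fell by 0.62 ± 0.18 (SE, edgeR, adjusted p = 0.0163) and UGT85A5, a UDP-glycosyltransferase gene, fell by 0.48 ± 0.17 (adjusted p = 0.0433). AT1G15010 rose by 1.68 ± 0.60 (adjusted p = 0.0474). AT3G27250 passed in all 8 alternatives. UGT85A5 had about the same difference with RLE factors (-0.46), without the low-count filter (-0.48) and with voom (-0.42), at adjusted p from 0.051 to 0.0798. AT1G15010 lost it without the low-count filter (0.0655), with the replicate block (1.23, 0.139) and with voom (0.51, 0.685). In AT3G27250 the median plants at 2, 5, 10 and 20 mM were 29.5, 19.9, 14.3 and 14.3 CPM in low light. They were 18.3, 19.1, 9.33 and 6.09 CPM in mid light and 15.9, 24.8, 11.2 and 4.50 CPM in high light. In high light its plants at 20 mM (2.16 to 7.22 CPM) overlapped with those at 2 mM (6.95 to 29.9 CPM) only between 6.95 and 7.22 CPM. UGT85A5 had medians of 26.9, 18.8, 12.2 and 14.01 CPM in low light and of 11.04, 17.5, 11.03 and 7.79 CPM in high light. Within mid light alone 0 members were called for 10 against 5 mM by edgeR, where 1.67% of all genes tested were called, and 8 members passed at an unadjusted p under 0.05. DESeq2 called 1 member, where it called 3.94% of all genes.

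Mid light departed from the midpoint of low and high light in 4 members, where 0.667% of all genes tested were called. Mid light at 2 mM enters the nitrate ratio and the minimum that chose the members, so these values are a description. All 4 were higher in mid light: DDF1 by 2.41 ± 0.55 (log2, SE, edgeR), AT4G29780 by 1.53 ± 0.39, AT2G25460 by 1.42 ± 0.38 and the jumonji-type gene AT5G46910 by 0.63 ± 0.15. By limma-voom 0 members and 0 of all 19498 genes were called in this contrast, with 12 members at an unadjusted p under 0.05. Without replicates 3, 4 and 6 of mid light at 2 mM the differences were 0.39, 0.31, 0.20 and 0.19, and edgeR called 0 members (6 at an unadjusted p under 0.05), where 0.218% of all genes tested were called.

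Some light by nitrate interaction was called in 20 members (27.03%) by the F test over 6 interaction terms, against 12.7% of all genes tested. These include DDF1 (edgeR adjusted p = 0.000301), ABR1 (0.000332), GA2OX6 (0.0133), SIP4 (0.00382), MAPKKK14 (0.00624), the transporter gene OCT6 (0.0124) and the heat shock factor gene HSFC1 (0.0209). With limma-voom all 7 of these lost the call (adjusted p from 0.072 to 0.686), and 6 members were called where it called 8.51% of all genes. Mid light at 2 mM, part of this test, also entered the choice of members. Without the 3 plants the count was 7 (9.46%), against 8.3% of all genes tested, and 6 of the 7 were among the 20. Those 6 were ABR1, SIS, BGAL4, AT4G01870, AT5G58160 and AT1G76800. With all 96 plants the share among the 1121 genes lower with light and higher with nitrate was 27.4%, among the 62 higher with both 22.6%, and among the 6023 higher with light and lower with nitrate 12.4%.

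BGAL4, a beta-galactosidase gene of the sugar starvation list, had the smallest p of the F test among members (edgeR adjusted p = 0.000117, and 0.00051 without the 3 plants). Its median plants in mid light were 0.661, 1.62, 2.87 and 6.74 CPM at 2, 5, 10 and 20 mM. In high light they were 3.80, 0.3002, 0.980 and 2.11 CPM, and the plants at 2 mM ranged from 0.940 to 85.9 CPM. In code sets 1 to 4 its light ratio was 1.08, 0.37, -2.52 and -2.24, and its nitrate ratio -2.72, -0.63, 1.97 and 0.26. It was the only member among 21 sugar starvation and dark-induced genes. Of the 20 tested by edgeR, 17 were lower and 3 higher in high light, where 28.7% of all genes tested were lower. At 20 mM 13 were higher and 3 lower, where 5597 of all 19498 genes tested were higher. AT1G76800, a vacuolar iron transporter family gene, had median plants of 11.9 CPM under low and 4.90 CPM under high light at 2 mM, and of 7.35 and 5.25 CPM at 20 mM.

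The contrasts of the rule itself, fitted with TMM factors, are given for completeness. High against low light was lower in 65 members (87.8%), where 28.7% of all genes tested were lower. For 20 against 2 mM, 16 members (21.6%) were lower, where 34.6% of all genes tested were lower. The fit averages log2 group levels over the light levels, whereas the rule compares averaged CPM. The largest nitrate decreases among the 16 were in AFP1 (-1.45 ± 0.35, SE), GA2OX6 (-1.22 ± 0.49), AT3G27250 (-1.17 ± 0.18), LTI30 (-1.14 ± 0.32) and NGA1 (-0.95 ± 0.40), a B3-type factor gene of leaf shape. Of the 16, 9 stayed lower under all 8 alternatives: AFP1, LTI30, NGA1, UGT85A5, AT3G27250, AT1G14200, AT3G16800, AT3G03000 and AT3G60070.

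Without the 3 plants 15 members were lower at 20 mM, where 5944 of all 19745 genes tested were lower. Of the 15, 11 were among the 16 called with all plants. In the same fit 8 members were higher (10.8%), where 28.1% of all genes tested were higher. The 3 plants were left out after their high values at 2 mM were seen, and high plants at 20 mM were kept. Leaving them out by itself raises the difference of 20 against 2 mM in genes high in them, so these calls are a description. The 8 were DDF1 (2.35 ± 0.71, SE, edgeR), AT5G52050 (2.12 ± 0.68), AT4G29780 (1.93 ± 0.54), AT2G25460 (1.38 ± 0.50), MAPKKK14 (1.32 ± 0.39), OCT6 (1.00 ± 0.37), AT5G46910 (0.66 ± 0.18) and HSFC1 (0.64 ± 0.19). With all 96 plants the same 8 lay between -0.39 and 0.36. GA2OX6 moved from -1.22 to 0.02.

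**Figure D5:**
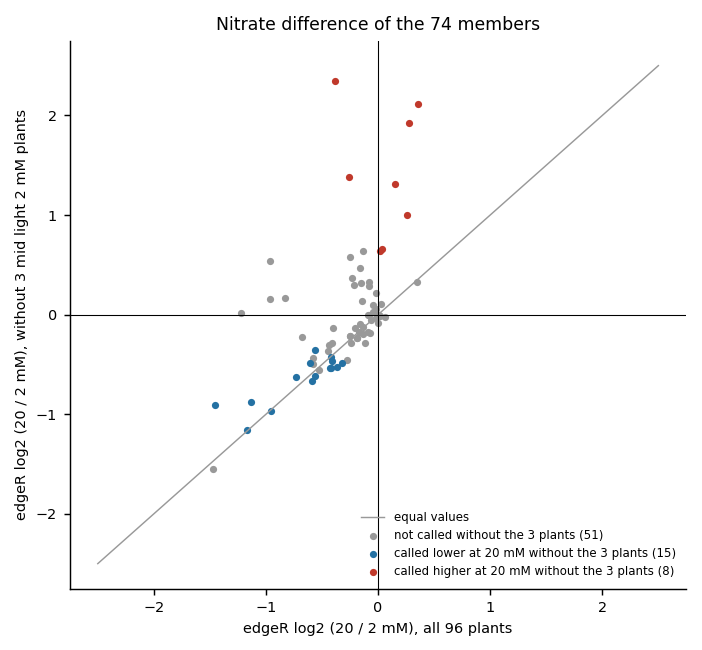
Each point is a member, placed by its edgeR log2 difference of 20 against 2 mM in all 96 plants (horizontal) and without replicates 3, 4 and 6 of mid light at 2 mM (vertical). Points on the grey line have equal values. Without the plants 8 members in red, above the line, were called higher, up to 2.35 for DDF1, and 15 in blue lower. Of all 19745 genes tested without the plants, 28.1% were higher and 5944 lower. Leaving out high plants at 2 mM alone by itself raises the vertical value of genes high in them.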

How the data were processed

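Polyadenylated RNA of 96 leaf samples was sequenced from stranded libraries, per the labels' protocols. The deposited table holds read counts per locus, made by the authors with STAR 2.5.3a and featureCounts on TAIR10, per the submitters' processing notes. For featureCounts, neither version nor strand setting is given in the sources used here. In units of 1000000 counts, library totals ran from 9.46 to 18.1 (median 12.5), and the number of columns without a sample was 0.

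Of 32833 loci, 32548 matched RefSeq (TAIR10.1), which gave names and promoter windows. CPM used library totals. Tests used edgeR 4.0.16 (quasi-likelihood, robust, TMM factors, filterByExpr by group, 12 group means) on 19498 genes, with Benjamini-Hochberg adjustment over all of them and a threshold of 0.05. They were tested on simulated counts with known changes. For the nitrate change in high against low light, 8.96% of changes of 0.5 log2 and 52.2% of changes of 1 were recovered. The shares were 64.2% and 89.6% for 10 against 5 mM, and 14.9% and 73.1% for it in mid light alone. For mid light against the midpoint they were 74.6% and 97%. DESeq2 1.42.0, limma 3.58.1 (voom), RLE factors, no filter on low counts, blocks and left-out libraries were alternatives. Members with a RefSeq symbol could be named. The members and the 27 gene lists were chosen with earlier results of these data known. Every plant is a separate individual, per the labels' protocols, and no 2 libraries agreed within sampling noise.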

Additional observations from a re-analysis of the deposited data

Results flagged for a closer look

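In 12 genes, 60 groups of 8 plants were examined for a plant far from the other 7. In normally distributed values chance would mark about 1 group in 20. CPM need not be distributed so, and the 12 genes are ones whose plants the text describes. That rate is therefore only a guide. DDF1 read 15.5 CPM in replicate 1 of low light at 20 mM, against 0 to 3.37 CPM in the others, and AT4G29780 read 250 CPM in the same plant, against 5.05 to 40.4 CPM. In high light at 20 mM, replicate 2 read 16.7 CPM for AFP1 (others 1.36 to 4.75 CPM) and 26.9 CPM for HAI1 (others 0.810 to 6.5 CPM). Replicate 8 of that group read 69.8 CPM for LTI30 (others 10.14 to 37.4 CPM), replicate 7 read 8.34 CPM for IAA29 (others 0.0914 to 3.15 CPM), and replicate 4 read 122 CPM for GRP3S (others 2.64 to 14.6 CPM). In replicate 4 COR15A was low, at 142 CPM against 688 to 1137 CPM. In high light at 2 mM, HAI1 read 20.3 CPM in replicate 2 (others 2.67 to 10.3 CPM) and COR15A read 1475 CPM in replicate 8 (others 140 to 701 CPM). IAA29 read 17.2 CPM in replicate 8 of mid light at 2 mM, against 0 to 8.05 CPM in the others.

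The response to nitrate differed between light levels in COR15A, by 1.99 on the log2 scale between high and low light. The edgeR F test over all interaction terms called 20 members (27.03%), where 12.7% of all genes tested were called. Without the 3 plants that stood apart it called 7 (9.46%), near the 8.3% of all genes tested. Groups in both tests also entered the choice of members.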

How the results depend on the processing

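For the nitrate change in high against low light, edgeR called 1 member. The count was 2 with RLE factors and with voom, 4 with DESeq2, 5 with the replicate block, 8 with the code set block, 10 without code set 1 and 3 without the 3 plants. Of all genes tested 6.03% were called by edgeR, 6.21% with RLE factors, 5.70% with voom and 7.755% with DESeq2. The share was 11.8% with the replicate block, 12.1% with the code set block, 15.8% without code set 1 and 7.02% without the 3 plants. The F test over interaction terms called 20, 22 with the replicate block, 6 with voom and 7 without the 3 plants. The shares of all genes tested were 12.7%, 23.6%, 8.51% and 8.3% in that order. For 10 against 5 mM the count of 3 became 1 without the low-count filter and with voom, 6 with DESeq2 and without the 3 plants, 5 with the code set block and 7 without code set 1. The 14% of all genes tested became 7.6% without the filter, 13.3% with voom and 16.6% with DESeq2. It became 14.7% without the 3 plants, 24.9% with the code set block and 16.1% without code set 1. In mid light alone DESeq2 and the code set block called 1 each, and edgeR 0, where 3.94%, 12.02% and 1.67% of all genes tested were called. The 4 members of mid light against the midpoint became 0 with voom and without the 3 plants, 7 with the replicate block, 8 with the code set block and 18 without code set 1. The 0.667% of all genes tested became 0% with voom and 0.218% without the 3 plants. It became 1.46% with the replicate block, 1.71% with the code set block and 6.35% without code set 1. High light was lower in 65 members, and in 43, 42, 41 and 39 within code sets 1 to 4 alone. It was lower in 5596 of all 19498 genes tested. Within the sets alone it was lower in 2459 of 19619, 5190 of 19542, 3852 of 19354 and 2841 of 19264. Lower at 20 mM were 16, 20 with the replicate block, 26 without code set 1, and 1, 20, 18 and 2 in sets 1 to 4 alone, where 7, 0, 3 and 4 were higher. Among all genes tested 6746 of 19498 were lower, 7080 of 19498 with the replicate block and 6093 of 19327 without code set 1. In sets 1 to 4 alone 3622, 3122, 4322 and 1731 of all genes tested were lower and 4008, 4483, 4081 and 1615 higher. The rule found 133 genes with a minimum of 1 CPM and 24 with a threshold of -0.5. Of 64 alternatives for single called genes, 49 kept the call, 15 lost it and 0 reversed. The cause of these differences was not tested.

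Replicate numbers were not taken to pair the plants, since not every pair was over 0.1, although most numbers follow the code sets: of 56 pairs of same-numbered plants 36 had a correlation over 0.1 (range -0.425 to 0.581), and in 13 the plant correlated best with its own number. The choice to leave out the 3 plants was made after seeing the data. Members of low mean CPM have the widest counting error at this depth.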
